A study of Mus musculus with 9 samples.

Results

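The genes described here are the translation initiation and elongation factors of the mouse. They were picked by symbol, as every name that starts with Eif1 to Eif6 or with Eef1 or Eef2, leaving out the eIF2 kinases named Eif2ak, the gene Eif2s3y and names ending in -ps, and 62 of the 15768 symbols in the deposited expression table met this rule. The rule used no measured value. Besides the factors themselves it takes in proteins that act on them, such as the methyltransferases of eEF1A and eEF2, and a few that carry the name but do other work, such as Eef1e1. Eef1a2 would meet this rule but is not among the deposited symbols, so it was not analysed here.

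RNA was sequenced from 3 cultured mouse tumour lines with 3 libraries each. SCC2 and SCC1 are lines that each grew from a single cell of LLC1 after limiting dilution, so each stands for 1 clone, and both were passaged 5 to 8 times. LLC1 is the parental Lewis lung carcinoma line, a transplantable tumour of mouse lung, kept as an uncloned culture. The 3 lines are labelled as untreated and of WT genotype and shared 1 medium, and the series sets the growth of the subclones in animals against their own capacity to divide. Whether the 3 libraries of a line are separate cultures is not in the labels; p-values here measure only their spread, which may be technical.

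Translation starts when eIF2 brings the initiator tRNA to the small ribosomal subunit, together with eIF1, eIF1A, eIF5 and the many-subunit scaffold eIF3. The cap-binding complex eIF4F, made of eIF4E, eIF4G and the helicase eIF4A, recruits this subunit to the messenger, and the eIF4E-binding proteins, when not phosphorylated by the kinase complex mTORC1, keep eIF4E away from eIF4G. After the start codon is found and the subunits join, eEF1A delivers each aminoacyl-tRNA, the eEF1B subunits reload it with GTP, and eEF2 moves the ribosome along. Many tumours carry more of these factors than normal tissue, and the messengers of the elongation factors belong to a class whose own translation depends on mTORC1.

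Values are FPKM, fragments per kilobase of transcript scaled to the mapped fragments of the library, so they are per length and relative to the rest of each library. A log2 change is the difference between the means of log2(FPKM + 1) of 2 lines, tested with limma over the 10519 genes that reached 1 FPKM in at least 3 of the 9 libraries, and a gene is called where the p-value after Benjamini-Hochberg adjustment over those genes is under 0.05. The files held 1.71e+07 to 1.94e+07 fragments per library, recovered from the FPKM steps. Of the 62 members, 61 were tested. Eef1akmt3 stayed under the minimum, with 0.24 to 0.73 FPKM over all libraries. Eif5a2 was at 1 FPKM or more in the 6 subclone libraries alone, and Eif3j2 in 4 libraries.

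Most of the factor genes differed between the lines by small amounts. In SCC2 against LLC1, 31 members were higher and 14 lower (73.8% called), against 67.6% of all genes tested, of which 34.7% were higher and 32.9% lower. In SCC1 against LLC1, 35 were higher and 12 lower (77.0% called), against 70.1% of all genes, of which 39.2% were higher and 30.9% lower. In SCC2 against SCC1, 24 were higher and 25 lower (80.3% called), against 76.3% of all genes, of which 37.0% were higher and 39.4% lower. The shares called were thus near those of all genes in each comparison. The libraries of the lines did not overlap for 48 of the 61 members in SCC2 against LLC1 (70.7% of all genes), 45 in SCC1 against LLC1 (72.3%) and 46 in SCC2 against SCC1 (77.9%). No member changed by 2-fold, which 1.58%, 1.91% and 3.35% of all genes did in the comparisons in the order given. The median log2 change of the members was 0.098 in SCC2 and 0.088 in SCC1 against LLC1, where that of all genes was 0.0075 and 0.033. Both comparisons against LLC1 use the same LLC1 libraries. The cultures were sequenced in bulk, where fewer cells of a kind and less RNA per cell cannot be told apart.

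**Figure D1:**
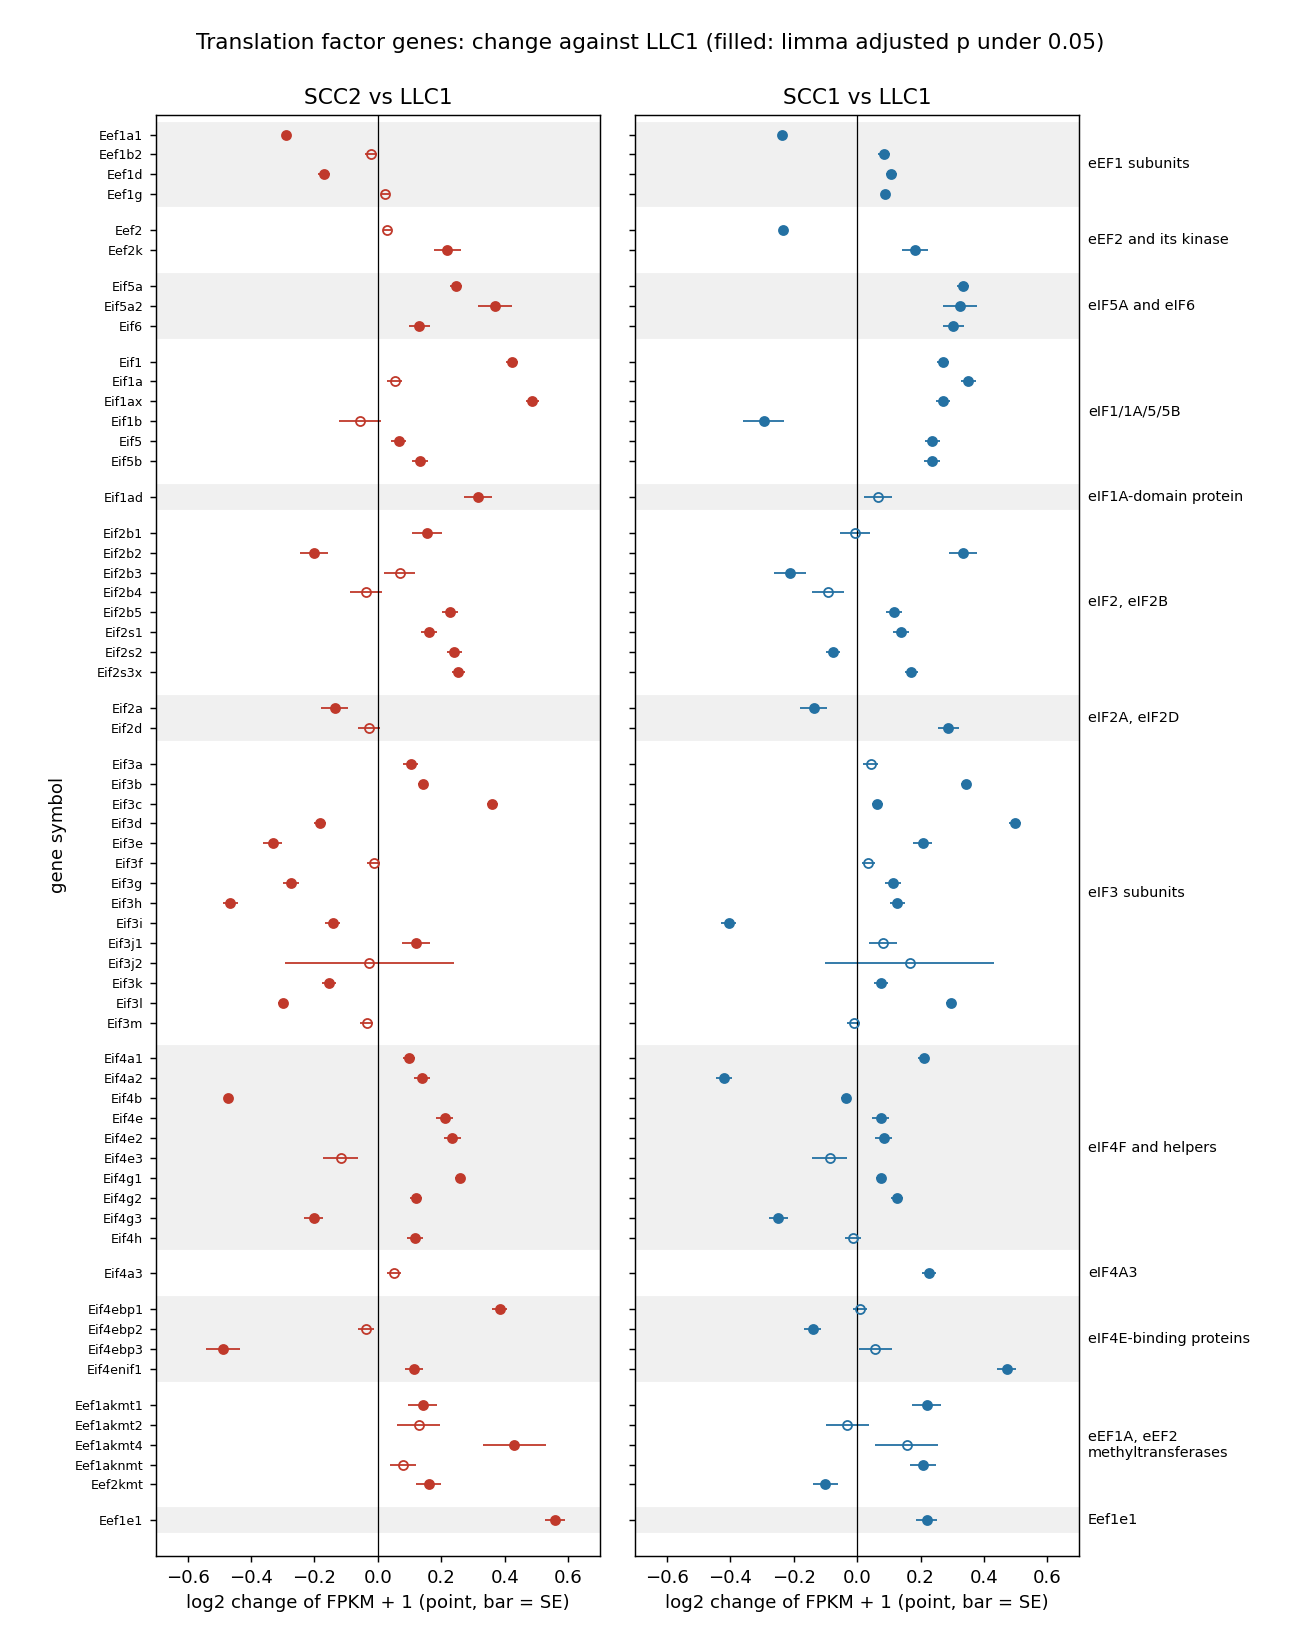
Log2 change of FPKM + 1 for the 61 tested members in SCC2 (left, red) and SCC1 (right, blue) against LLC1, grouped by role down the page; bars are standard errors and filled points have a limma adjusted p under 0.05. All points lie between -0.49 and 0.56, and the eIF3 subunits and the eIF4F group hold both higher and lower members in each subclone.

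eEF1A, the GTPase that carries aminoacyl-tRNAs to the ribosome, was the most abundant messenger of every library and was lower in both subclones. Eef1a1 had 6316, 6315 and 6289 FPKM in SCC2, 6592, 6497 and 6539.8 FPKM in SCC1 and 7709.7, 7777 and 7644 FPKM in LLC1. All subclone libraries lay below all LLC1 libraries, and SCC2 also lay below SCC1. Relative to LLC1 the mean fell by 18.2% in SCC2 and fell by 15.1% in SCC1. The log2 change was -0.29 ± 0.011 in SCC2 against LLC1 (limma adjusted p = 1.09e-09), -0.24 ± 0.011 in SCC1 against LLC1 (adjusted p = 4.48e-09) and -0.053 ± 0.011 in SCC2 against SCC1 (adjusted p = 0.000799); here and below, errors of log2 changes are SE. Eef1a1 took 1.63 to 1.65% of the FPKM total in SCC2, 1.66 to 1.68% in SCC1 and 1.97 to 2.01% in LLC1. The lead over the gene ranked next was 1.78 to 1.82-fold in SCC2, 1.65 to 1.69-fold in SCC1 and 2.26 to 2.27-fold in LLC1. Without Eef1a1 the other members summed to 8423 to 8473 FPKM in SCC2, 8643 to 8695 FPKM in SCC1 and 8257 to 8302 FPKM in LLC1, so that their sum was higher in the subclones while that of all members, 3.84 to 3.86% of the total in SCC2 and 3.87 to 3.90% in SCC1 against 4.11 to 4.14% in LLC1, was lower. Quantile normalization gives the top gene of each library 1 common value and so sets its change to 0 by construction; median-of-ratios scaling and the removal of chromosome medians kept the call and the direction. How reads that align to near-identical copies of such a gene were assigned is not known here.

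eEF2, the translocase, was lower in SCC1 and not called in SCC2. Eef2 had 1688, 1687 and 1667 FPKM in SCC2, 1389, 1397 and 1416 FPKM in SCC1 and 1642, 1637 and 1667 FPKM in LLC1. SCC1 lay below both other lines, while SCC2 lay just above LLC1. Its log2 change was 0.028 ± 0.013 in SCC2 against LLC1 (limma adjusted p = 0.0814), -0.23 ± 0.013 in SCC1 against LLC1 (adjusted p = 2.64e-08) and 0.26 ± 0.013 in SCC2 against SCC1 (adjusted p = 5.52e-09). The ratio of Eef1a1 to Eef2 was 3.74 to 3.77 in SCC2, against 4.62 to 4.75 in SCC1 and 4.59 to 4.75 in LLC1. In SCC2 against LLC1 the count model on recovered fragments called Eef2 higher (limma-voom adjusted p = 0.00644), at 0.027 on the log2 scale, and so did quantile normalization (0.19, adjusted p = 1.86e-05) and the fit without LLC1 replicate 3 (0.036, adjusted p = 0.0359). An alternative fit that took the median change of each chromosome off its genes, described with the chromosomes, called it lower there (-0.068, limma adjusted p = 0.00104) and ended the call of SCC2 against SCC1 and turned its sign (-0.016, limma adjusted p = 0.301).

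The starts of the Eef1a1 and Eef2 genes are shown because the messengers of elongation factors are known to begin in a run of pyrimidines through which mTORC1 acts on them. Each is 100 bases before to 50 bases after the start that RefSeq annotates (build GRCm38.p6; chr9:78481675-78481824, minus strand, and chr10:81176531-81176680, plus strand). Capitals mark a C followed by at least 6 further C or T bases that begins between 10 bases before and 40 bases after the start, and the hexamer CACGTG, known as the E-box that Myc and related proteins bind. In the Eef1a1 window the marked run begins before the annotated start, and the letters tatataag come after it. Whether either marked run begins a messenger was not tested.
Eef1a1: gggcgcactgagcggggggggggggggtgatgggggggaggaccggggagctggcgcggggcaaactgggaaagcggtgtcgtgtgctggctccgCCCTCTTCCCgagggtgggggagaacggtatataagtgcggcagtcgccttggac
Eef2: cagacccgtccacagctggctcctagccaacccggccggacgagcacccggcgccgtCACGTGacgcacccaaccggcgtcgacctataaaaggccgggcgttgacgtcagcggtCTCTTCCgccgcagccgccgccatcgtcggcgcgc

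Of the 3 subunits of the exchange factor eEF1B, which reloads eEF1A, all were called higher in SCC1 against LLC1, opposite to Eef1a1, and Eef1d alone was called in SCC2, where it was lower. Eef1d, the delta subunit, had 83.5, 83.5 and 82.4 FPKM in SCC2, 101, 102 and 101 FPKM in SCC1 and 93.6, 92.2 and 95.3 FPKM in LLC1. SCC2 lay below LLC1 and SCC1 above it, with no overlap. On the log2 scale the change was -0.17 ± 0.018 in SCC2 against LLC1 (limma adjusted p = 6.41e-06), 0.11 ± 0.018 in SCC1 against LLC1 (adjusted p = 0.000222) and -0.28 ± 0.018 in SCC2 against SCC1 (adjusted p = 4.80e-08). The removal of chromosome medians reversed all 3 values of Eef1d, to 0.088, -0.055 and 0.16 in the same order. The coding gene Naprt, annotated on the same strand, overlaps Eef1d, and how reads of the shared stretch were assigned is not known here. Eef1b2, the beta subunit, averaged 372 ± 3 FPKM in SCC2, 401 ± 7.9 FPKM in SCC1 and 378 ± 5.8 FPKM in LLC1 (SD, n = 3 each), and Eef1g, the gamma subunit, 874 ± 6 FPKM in SCC2, 915 ± 1.8 FPKM in SCC1 and 861 ± 10 FPKM in LLC1. Both were higher in SCC1 than in LLC1, by 0.084 ± 0.018 (limma adjusted p = 0.0015) and 0.088 ± 0.014 (adjusted p = 0.000119) on the log2 scale, and not called in SCC2 against LLC1, at -0.021 ± 0.018 (adjusted p = 0.323) and 0.022 ± 0.014 (adjusted p = 0.171). With chromosome medians removed both were called lower in SCC2, Eef1b2 at -0.16, limma adjusted p = 1.73e-05, and Eef1g at -0.081, limma adjusted p = 0.000302, and Eef1b2 was not called in SCC1 (0.022, limma adjusted p = 0.317). Quantile normalization called Eef1g higher in SCC2 (0.12, limma adjusted p = 4.06e-05). Eef2k, the kinase that phosphorylates and slows eEF2, was higher in SCC2 by 0.22 ± 0.041 (SE, limma adjusted p = 0.000542) and in SCC1 by 0.18 ± 0.041 (SE, limma adjusted p = 0.00197), at 5.55 to 5.81 FPKM in SCC2 and 5.41 to 5.64 FPKM in SCC1 against 4.54 to 5.03 FPKM in LLC1.

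eIF5A, which carries hypusine and helps the ribosome past stretches such as proline runs, was higher in both subclones, as was eIF6, which keeps the large ribosomal subunit from joining too early. Eif5a had 637, 645 and 644 FPKM in SCC2, 677, 679 and 693 FPKM in SCC1 and 545, 525 and 554 FPKM in LLC1. Every subclone library lay above every LLC1 library, with SCC1 above SCC2. The log2 change was 0.25 ± 0.02 in SCC2 against LLC1 (limma adjusted p = 5.52e-07), 0.34 ± 0.02 in SCC1 against LLC1 (adjusted p = 3.30e-08) and -0.089 ± 0.02 in SCC2 against SCC1 (adjusted p = 0.00134). The last value turned to a called increase when chromosome medians were removed (0.12, limma adjusted p = 0.000137). Eif6 had 83, 83.3 and 79 FPKM in SCC2, 91.1, 89.7 and 96.1 FPKM in SCC1 and 76.2, 71.4 and 76.3 FPKM in LLC1. It too lay above LLC1 in all subclone libraries, by 0.13 ± 0.033 in SCC2 (limma adjusted p = 0.00439) and 0.30 ± 0.033 in SCC1 (adjusted p = 7.26e-06) on the log2 scale. Between the subclones SCC2 was lower, at -0.17 ± 0.033 (SE, limma adjusted p = 0.00052), a call that was lost with chromosome medians removed (-0.018, limma adjusted p = 0.64). The second eIF5A gene, Eif5a2, had 1.17 to 1.35 FPKM in SCC2 and 1.11 to 1.28 FPKM in SCC1 against 0.72 to 0.82 FPKM in LLC1, and made up 0.198% of the summed FPKM of both genes in SCC2, 0.177% in SCC1 and 0.141% in LLC1. It passed the minimum through the subclones alone, so that it had to differ.

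**Figure D2:**
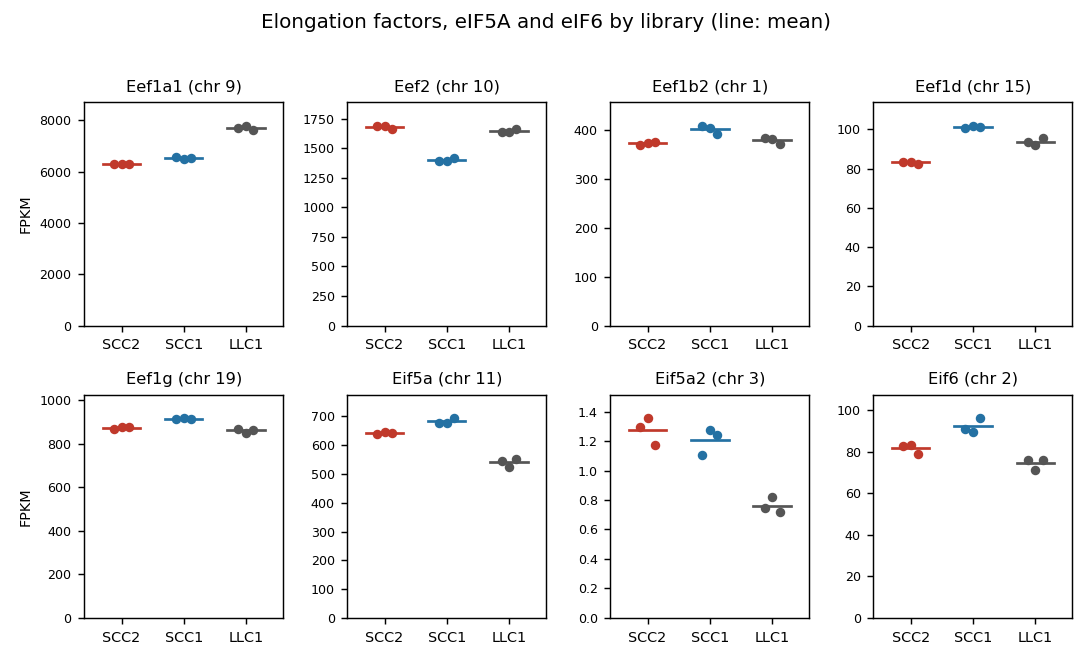
FPKM of elongation factor genes, Eif5a, Eif5a2 and Eif6 in each library of SCC2, SCC1 and LLC1 (points; the line is the mean of 3 libraries), with the chromosome of each gene. Eef1a1 is at 6289 to 6592 FPKM in the subclones and at 7644 to 7777 FPKM in LLC1, while Eef2 is low in SCC1 alone.

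eIF3, the scaffold that holds the initiation complex on the small subunit, was a mixed group. Of its 14 genes, 4 were higher and 7 lower in SCC2 against LLC1, 8 were higher and 1 lower in SCC1 against LLC1, and 3 were higher and 8 lower in SCC2 against SCC1. Of all genes tested, 34.7% were higher and 32.9% lower, 39.2% higher and 30.9% lower, and 37.0% higher and 39.4% lower in the same order, so that 11, 9 and 11 called genes of 14 stand beside 67.6%, 70.1% and 76.3% called overall. The median log2 change was -0.089, 0.096 and -0.20 in these comparisons. Eif3d, Eif3e, Eif3g, Eif3h, Eif3k and Eif3l were called lower in SCC2 and higher in SCC1 against LLC1. Each of the 6 was also lower in SCC2 than in SCC1. After the median change of each chromosome was taken off its genes (the alternative fit described with the chromosomes), Eif3d turned to 0.076 in SCC2 and Eif3h to -0.036 in SCC1 against LLC1, and the calls of Eif3e in both subclones and of Eif3k and Eif3c in SCC1 were lost, as was that of Eif3a in SCC2. Eif3a was itself the median gene of chromosome 19 in SCC2, so that its value of 0.0 there follows by construction. Quantile normalization also ended the SCC1 call of Eif3c (0.023, limma adjusted p = 0.359).

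Eif3d, the subunit that can itself bind the cap of some messengers, had 116, 119 and 119 FPKM in SCC2, 189, 190.2 and 191 FPKM in SCC1 and 132, 134 and 137 FPKM in LLC1. The lines did not overlap, with SCC1 highest and SCC2 lowest. Its log2 change was -0.18 ± 0.02 in SCC2 against LLC1 (limma adjusted p = 7.67e-06), 0.50 ± 0.02 in SCC1 against LLC1 (adjusted p = 1.41e-09) and -0.68 ± 0.02 in SCC2 against SCC1 (adjusted p = 5.25e-11), and the last value was the lowest of any member in that comparison. Eif3l, a peripheral subunit, had 159, 159 and 156 FPKM in SCC2, 238, 241 and 240.4 FPKM in SCC1 and 194, 194 and 197 FPKM in LLC1. Its lines had the same order without overlap, and its log2 change was -0.30 ± 0.016 in SCC2 against LLC1 (limma adjusted p = 2.06e-08), 0.30 ± 0.016 in SCC1 against LLC1 (adjusted p = 1.77e-08) and -0.60 ± 0.016 in SCC2 against SCC1 (adjusted p = 2.83e-11). Eif3e, of the ring of eIF3 subunits around the core, had 189, 195 and 194 FPKM in SCC2, 292, 273 and 275 FPKM in SCC1 and 234, 251 and 243 FPKM in LLC1. Again SCC2 was lowest and SCC1 highest, at -0.33 ± 0.03 in SCC2 (limma adjusted p = 1.61e-06), 0.21 ± 0.03 in SCC1 (adjusted p = 7.13e-05) and -0.54 ± 0.03 between SCC2 and SCC1 (adjusted p = 1.20e-08).

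Eif3h, whose product regulates which messengers eIF3 loads, showed the largest fall of the group in SCC2. It had 269.8, 266 and 275 FPKM in SCC2, 413, 400.0 and 411 FPKM in SCC1 and 376, 384 and 361 FPKM in LLC1. All SCC2 libraries lay below LLC1 and all SCC1 libraries above it, with log2 changes of -0.47 ± 0.023 in SCC2 (limma adjusted p = 1.05e-08), 0.13 ± 0.023 in SCC1 (adjusted p = 0.000408) and -0.59 ± 0.023 between SCC2 and SCC1 (adjusted p = 5.93e-10). Eif3g, which contacts eIF4B and carries an RNA-binding domain, had 82.9, 81 and 85.1 FPKM in SCC2, 106, 109 and 111 FPKM in SCC1 and 98.8, 99.7 and 103 FPKM in LLC1. It was lower in SCC2, at -0.27 ± 0.025 (SE, limma adjusted p = 1.84e-06), higher in SCC1 by 0.11 ± 0.025 (SE, limma adjusted p = 0.0018) and lower in SCC2 than in SCC1, at -0.39 ± 0.025 (SE, limma adjusted p = 4.70e-08). Eif3k, the partner of Eif3l at the edge of the complex, had 109, 106 and 108 FPKM in SCC2, 127, 125 and 128 FPKM in SCC1 and 117, 119 and 123 FPKM in LLC1. Its changes were smaller, at -0.15 ± 0.022 in SCC2 (limma adjusted p = 5.99e-05), 0.076 ± 0.022 in SCC1 (adjusted p = 0.00834) and -0.23 ± 0.022 between SCC2 and SCC1 (adjusted p = 1.26e-06).

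The remaining eIF3 genes had other patterns. Eif3c, a core subunit that binds eIF1 and eIF5, had 197, 193 and 196 FPKM in SCC2, 158, 162 and 157 FPKM in SCC1 and 151, 152 and 153 FPKM in LLC1. SCC2 lay above both other lines, by 0.36 ± 0.017 (SE, limma adjusted p = 7.93e-09) against LLC1 and 0.30 ± 0.017 (SE, limma adjusted p = 1.75e-08) against SCC1, and SCC1 was above LLC1 by 0.064 ± 0.017 (SE, limma adjusted p = 0.00591). Eif3b, the core subunit on which the scaffold is built, had 148, 149 and 152 FPKM in SCC2, 172, 171 and 173 FPKM in SCC1 and 135, 134 and 136 FPKM in LLC1. Both subclones lay above LLC1, at 0.14 ± 0.016 in SCC2 (limma adjusted p = 1.16e-05) and 0.34 ± 0.016 in SCC1 (adjusted p = 5.54e-09), and SCC2 was below SCC1, at -0.20 ± 0.016 (SE, limma adjusted p = 3.14e-07). Eif3i, a core subunit that binds Eif3b, had 136, 133 and 139 FPKM in SCC2, 112, 110.4 and 117 FPKM in SCC1 and 149, 151 and 151 FPKM in LLC1. It was the one eIF3 gene lower in SCC1, at -0.41 ± 0.023 (SE, limma adjusted p = 2.53e-08), and was lower by less in SCC2, at -0.14 ± 0.023 (SE, limma adjusted p = 0.000173), so that SCC2 was above SCC1 by 0.26 ± 0.023 (SE, limma adjusted p = 6.36e-07). This last call was lost and its sign turned with chromosome medians removed (-0.032, limma adjusted p = 0.243).

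Eif3a, the largest core subunit, and Eif3j1, a loosely bound one, were higher in SCC2 than in LLC1, by 0.10 ± 0.023 (SE, limma adjusted p = 0.00203) and 0.12 ± 0.044 (SE, limma adjusted p = 0.0314), and were not called in SCC1, at 0.043 ± 0.023 (adjusted p = 0.12) and 0.080 ± 0.044 (adjusted p = 0.123). The call of Eif3j1 was lost without a filter on low values (limma adjusted p = 0.0638) and without LLC1 replicate 2 or 3 or SCC2 replicate 2 (0.086 to 0.11, limma adjusted p = 0.0783 to 0.125). Eif3f averaged 199 ± 3.3 FPKM in SCC2, 205 ± 3.6 FPKM in SCC1 and 200.4 ± 3.8 FPKM in LLC1 and Eif3m 91.3 ± 1.4 FPKM in SCC2, 92.9 ± 0.65 FPKM in SCC1 and 93.6 ± 1.8 FPKM in LLC1 (SD, n = 3 each), and neither was called against LLC1. Eif3j2, a near copy of Eif3j1, had 0.398 to 2.33 FPKM over the libraries, with all lines overlapping, and reads may have been split between it and Eif3j1. The ratio of Eif3h to Eif3c, both of the same complex, was 1.37 to 1.41 in SCC2, against 2.47 to 2.62 in SCC1 and 2.36 to 2.53 in LLC1.

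Eif3d, Eif3e, Eif3h and Eif3l lie on chromosome 15, and the FPKM of these 4 genes summed to 733 to 744 in SCC2, 1104 to 1132 in SCC1 and 934 to 962 in LLC1. The other eIF3 genes summed to 1089 to 1104 FPKM in SCC2, 1105 to 1115 FPKM in SCC1 and 1076 to 1081 FPKM in LLC1. The difference between the lines in summed eIF3 FPKM thus lay mostly in the chromosome 15 genes. Within the other sum, opposite changes offset each other, such as Eif3c, higher in SCC2, and Eif3g, Eif3i and Eif3k, lower there.

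**Figure D3:**
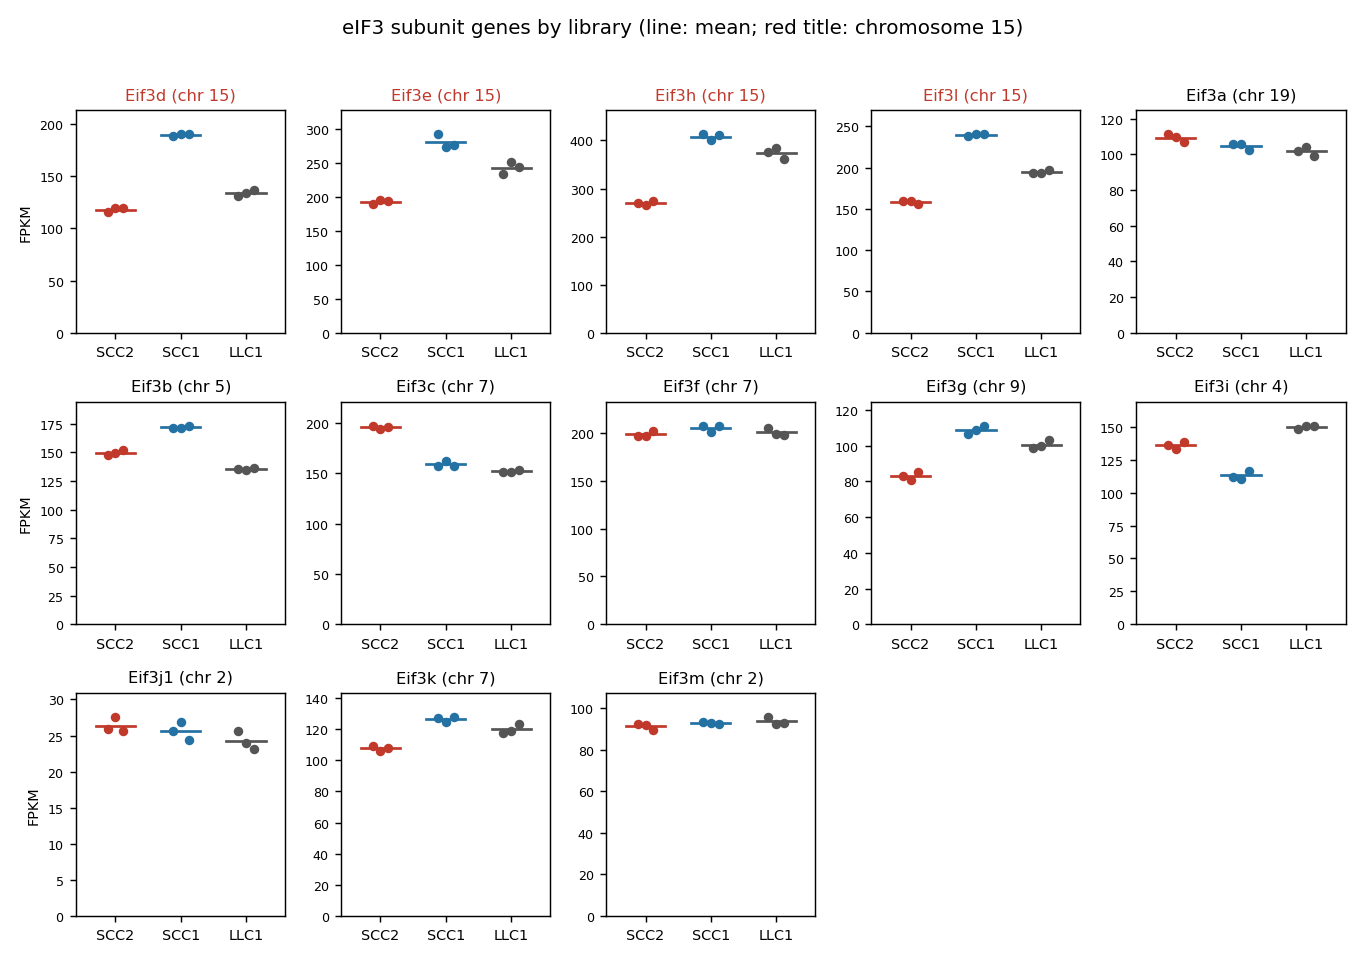
FPKM of eIF3 subunit genes in each library of SCC2, SCC1 and LLC1 (points; the line is the mean of 3 libraries), with the chromosome of each gene. The chromosome 15 genes Eif3d, Eif3e, Eif3h and Eif3l are lowest in SCC2 and highest in SCC1, Eif3c is highest in SCC2 and Eif3i is lowest in SCC1.

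The starts of a pair of chromosome 15 subunit genes and of Eif4b, on the same chromosome, are shown to compare genes that shared the low level in SCC2 (RefSeq, GRCm38.p6; chr15:77970775-77970924, minus strand; chr15:79075123-79075272, plus strand; and chr15:102073673-102073822, plus strand). Capitals again mark the pyrimidine run and CACGTG. The Eif3l and Eif4b windows hold pyrimidine runs, and the Eif3d window holds neither motif.
Eif3d: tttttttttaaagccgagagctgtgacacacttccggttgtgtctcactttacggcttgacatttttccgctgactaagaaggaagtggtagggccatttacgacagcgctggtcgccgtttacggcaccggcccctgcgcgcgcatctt
Eif3l: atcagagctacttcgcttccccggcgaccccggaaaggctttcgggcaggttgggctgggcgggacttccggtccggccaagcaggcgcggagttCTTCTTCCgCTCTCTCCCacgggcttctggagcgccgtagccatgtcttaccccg
Eif4b: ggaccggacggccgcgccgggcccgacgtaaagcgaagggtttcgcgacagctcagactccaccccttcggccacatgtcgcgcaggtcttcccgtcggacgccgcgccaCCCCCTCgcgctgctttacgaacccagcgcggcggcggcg

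Of the genes for eIF2, which carries the initiator tRNA, and eIF2B, which exchanges its GDP for GTP, 5 of 8 were higher and 1 lower in SCC2 against LLC1, and 4 were higher and 2 lower in SCC1 against LLC1. Of all genes tested, 34.7% were higher and 32.9% lower in SCC2 and 39.2% higher and 30.9% lower in SCC1. Eif2s1, the alpha subunit that the stress kinases phosphorylate, had 75.1, 76.6 and 77.6 FPKM in SCC2, 76, 75.6 and 73.8 FPKM in SCC1 and 68.9, 70.2 and 65.6 FPKM in LLC1. All subclone libraries lay above LLC1 and the subclones overlapped. On the log2 scale the change was 0.16 ± 0.026 in SCC2 against LLC1 (limma adjusted p = 0.000173), 0.14 ± 0.026 in SCC1 against LLC1 (adjusted p = 0.000533) and 0.023 ± 0.026 in SCC2 against SCC1 (adjusted p = 0.43). Eif2s2, the beta subunit, had 93.9, 95.6 and 93.2 FPKM in SCC2, 75.5, 76.7 and 74.1 FPKM in SCC1 and 79, 81.9 and 77.8 FPKM in LLC1. SCC2 lay above both other lines, by 0.24 ± 0.023 (SE, limma adjusted p = 2.61e-06) against LLC1 and 0.32 ± 0.023 (SE, limma adjusted p = 1.28e-07) against SCC1, while SCC1 was below LLC1, at -0.076 ± 0.023 (SE, limma adjusted p = 0.012). Without LLC1 replicate 2 the last call was lost (-0.055, limma adjusted p = 0.0517). Eif2s3x, the gamma subunit, was higher in SCC2 by 0.25 ± 0.021 (SE, limma adjusted p = 7.21e-07) and in SCC1 by 0.17 ± 0.021 (SE, limma adjusted p = 1.75e-05). Both calls were lost with chromosome medians removed (0.022, limma adjusted p = 0.387, and 0.0051, limma adjusted p = 0.846).

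Eif2b2, the beta subunit of eIF2B, differed in opposite directions. It had 19.8, 22.6 and 22.4 FPKM in SCC2, 30.6, 31.7 and 32.8 FPKM in SCC1 and 25.2, 25 and 24.7 FPKM in LLC1. SCC2 lay below LLC1 and SCC1 above it in all libraries, with a log2 change of -0.20 ± 0.044 in SCC2 against LLC1 (limma adjusted p = 0.00166), 0.33 ± 0.044 in SCC1 against LLC1 (adjusted p = 3.35e-05) and -0.53 ± 0.044 in SCC2 against SCC1 (adjusted p = 3.81e-07). Eif2b3, the gamma subunit, had 5.75, 6.02 and 5.53 FPKM in SCC2, 4.48, 4.64 and 4.58 FPKM in SCC1 and 5.48, 5.02 and 5.88 FPKM in LLC1. SCC1 lay below both other lines, at -0.21 ± 0.05 (SE, limma adjusted p = 0.00256) against LLC1, and SCC2 was above SCC1 by 0.28 ± 0.05 (SE, limma adjusted p = 0.000285) while not called against LLC1 (limma adjusted p = 0.245). Taking off the median of its chromosome turned the SCC1 value to 0.12 and that of SCC2 against SCC1 to -0.013. Eif2b5, the catalytic epsilon subunit, was higher in SCC2 by 0.23 ± 0.024 (SE, limma adjusted p = 6.32e-06) and in SCC1 by 0.12 ± 0.024 (SE, limma adjusted p = 0.00109). The SCC2 call was lost with chromosome medians removed (0.014, limma adjusted p = 0.647). Eif2b1, the alpha subunit, was higher in SCC2 by 0.15 ± 0.047 (SE, limma adjusted p = 0.0118) and not called in SCC1 (-0.0068 ± 0.047, adjusted p = 0.905). Eif2b4, the delta subunit, was not called in any comparison. The SCC2 call of Eif2b1 was lost with chromosome medians removed (0.10, limma adjusted p = 0.0876) and without LLC1 replicate 1 or SCC2 replicate 1 (0.11 to 0.13, limma adjusted p = 0.0509 to 0.0545). Eif2a and Eif2d encode other proteins that can bring tRNA to the ribosome. Eif2a was lower in both subclones, at -0.14 ± 0.042 (SE, limma adjusted p = 0.0136) in SCC2 and -0.14 ± 0.042 (SE, limma adjusted p = 0.0133) in SCC1. These calls were lost without LLC1 replicate 1 or 2, and that in SCC2 also without SCC2 replicate 1 (limma adjusted p = 0.0509 to 0.0580). Eif2d was higher in SCC1 by 0.29 ± 0.034 (SE, limma adjusted p = 1.47e-05) and not called in SCC2 (-0.029 ± 0.034, adjusted p = 0.472).

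Of the 6 factors that select the start codon and join the subunits, 4 were higher in SCC2 against LLC1 and the other two not called, and 5 were higher and 1 lower in SCC1. Of all genes, 34.7% were higher in SCC2, and 39.2% higher and 30.9% lower in SCC1. Eif1, which guards against wrong start codons, had 281, 285 and 278 FPKM in SCC2, 252, 254 and 253 FPKM in SCC1 and 215, 206 and 207 FPKM in LLC1. SCC2 was highest and LLC1 lowest, with no overlap. The log2 change was 0.42 ± 0.019 in SCC2 against LLC1 (limma adjusted p = 5.02e-09), 0.27 ± 0.019 in SCC1 against LLC1 (adjusted p = 1.75e-07) and 0.15 ± 0.019 in SCC2 against SCC1 (adjusted p = 1.45e-05). Its second gene, Eif1b, had 28.3, 30.0 and 28.2 FPKM in SCC2, 26.6, 22.1 and 24.3 FPKM in SCC1 and 32.6, 30.0 and 27.5 FPKM in LLC1. SCC1 lay below LLC1, and SCC2 overlapped LLC1. Eif1b was lower in SCC1, at -0.29 ± 0.065 (SE, limma adjusted p = 0.0017), not called in SCC2 (-0.056 ± 0.065, adjusted p = 0.464) and higher in SCC2 than in SCC1 by 0.24 ± 0.065 (SE, limma adjusted p = 0.0056). The call in SCC1 was lost when chromosome medians were removed (-0.11, limma adjusted p = 0.17). Its share of the summed FPKM of Eif1 and Eif1b was 9.13 to 9.51% in SCC2 and 8.01 to 9.54% in SCC1 against 11.7 to 13.1% in LLC1 (exact permutation p = 0.1 for each subclone, two-sided, the smallest that 3 against 3 libraries allow).

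eIF1A, which helps scan for the start codon, is encoded by Eif1ax and Eif1a. Eif1ax had 43, 42 and 42.9 FPKM in SCC2, 36.6, 36.6 and 36.5 FPKM in SCC1 and 29.9, 30.6 and 29.9 FPKM in LLC1. SCC2 was highest, then SCC1, then LLC1, with no overlap, and the log2 change was 0.49 ± 0.021 in SCC2 against LLC1 (limma adjusted p = 3.83e-09), 0.27 ± 0.021 in SCC1 against LLC1 (adjusted p = 3.97e-07) and 0.22 ± 0.021 in SCC2 against SCC1 (adjusted p = 1.82e-06). Eif1a had 52.1, 53.5 and 53.1 FPKM in SCC2, 67.1, 63.9 and 64.7 FPKM in SCC1 and 51.2, 51.4 and 50.2 FPKM in LLC1. It was high in SCC1, by 0.35 ± 0.023 (SE, limma adjusted p = 9.40e-08) against LLC1, and not called in SCC2 against LLC1 (0.053 ± 0.023, adjusted p = 0.0588), although the SCC2 libraries lay above those of LLC1. SCC2 was below SCC1, at -0.30 ± 0.023 (SE, limma adjusted p = 2.21e-07), which turned to 0.16 when chromosome medians were removed. Eif5, which makes eIF2 hydrolyse its GTP, was higher by 0.066 ± 0.024 (SE, limma adjusted p = 0.0273) in SCC2 and 0.24 ± 0.024 (SE, limma adjusted p = 3.28e-06) in SCC1, and Eif5b, the GTPase of subunit joining, by 0.13 ± 0.025 (SE, limma adjusted p = 0.000624) and 0.24 ± 0.025 (SE, limma adjusted p = 5.70e-06) in the same order. The SCC2 call of Eif5 was lost under quantile normalization (0.020, limma adjusted p = 0.47), without trend and robust moderation (limma adjusted p = 0.0632) and without LLC1 replicate 1 or 2 or SCC2 replicate 1 or 2 (0.052 to 0.066, limma adjusted p = 0.0583 to 0.105). That of Eif5b was lost with chromosome medians removed (-0.0054, limma adjusted p = 0.867). Eif1ad, named for an eIF1A-like domain, had 19.5, 18.3 and 18 FPKM in SCC2, 15.7, 14.7 and 16 FPKM in SCC1 and 15.5, 14.8 and 14 FPKM in LLC1. SCC2 lay above both other lines, which overlapped, at 0.32 ± 0.045 against LLC1 (limma adjusted p = 6.41e-05) and 0.25 ± 0.045 against SCC1 (adjusted p = 0.00029), where the call was lost with chromosome medians removed (0.085, limma adjusted p = 0.114).

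In the eIF4F cap complex and its helpers, 7 of 10 genes were higher and 2 lower in SCC2 against LLC1, and 5 were higher and 3 lower in SCC1. This stands beside 34.7% higher and 32.9% lower of all genes in SCC2 and 39.2% and 30.9% in SCC1. Eif4e, the cap-binding protein, had 25.9, 26.4 and 26.6 FPKM in SCC2, 23.8, 24.1 and 23.6 FPKM in SCC1 and 22.2, 23.2 and 22.4 FPKM in LLC1. The lines did not overlap, with SCC2 highest. Its log2 change was 0.21 ± 0.026 in SCC2 against LLC1 (limma adjusted p = 1.92e-05), 0.074 ± 0.026 in SCC1 against LLC1 (adjusted p = 0.023) and 0.14 ± 0.026 in SCC2 against SCC1 (adjusted p = 0.000424). The SCC1 call was lost without LLC1 replicate 1 or 3 or SCC1 replicate 1 or 2, at 0.061 to 0.074 and limma adjusted p of 0.0519 to 0.0863, under quantile normalization (0.047, limma adjusted p = 0.134) and under median-of-ratios scaling (0.057, limma adjusted p = 0.0708). Eif4g1, the main scaffold of eIF4F, had 195, 192 and 195 FPKM in SCC2, 171, 170.0 and 171 FPKM in SCC1 and 163, 162 and 162 FPKM in LLC1. Its lines had the same order without overlap, with log2 changes of 0.26 ± 0.015 in SCC2 (limma adjusted p = 3.50e-08), 0.076 ± 0.015 in SCC1 (adjusted p = 0.000734) and 0.18 ± 0.015 between SCC2 and SCC1 (adjusted p = 3.23e-07). Removing chromosome medians turned the last value to -0.095, and quantile normalization ended the SCC1 call (0.028, limma adjusted p = 0.179). The start of Eif4g1 is shown since it holds CACGTG at 2 places (RefSeq, GRCm38.p6; chr16:20672627-20672776, plus strand; capitals mark them).
Eif4g1: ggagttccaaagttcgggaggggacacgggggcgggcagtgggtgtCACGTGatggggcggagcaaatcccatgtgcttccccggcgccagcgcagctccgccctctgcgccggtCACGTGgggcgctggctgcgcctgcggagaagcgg

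The helicase eIF4A is encoded by a pair of genes, and these did not move together. Eif4a1 had 498, 505 and 514 FPKM in SCC2, 548, 546 and 546 FPKM in SCC1 and 474, 481 and 462 FPKM in LLC1. Both subclones lay above LLC1, SCC1 by more, and the log2 change was 0.098 ± 0.018 in SCC2 against LLC1 (limma adjusted p = 0.000402), 0.21 ± 0.018 in SCC1 against LLC1 (adjusted p = 7.45e-07) and -0.11 ± 0.018 in SCC2 against SCC1 (adjusted p = 0.000108). Eif4a2 had 61.1, 60.8 and 63.4 FPKM in SCC2, 42.7, 41.5 and 40.5 FPKM in SCC1 and 55.6, 56.8 and 55.5 FPKM in LLC1. Here SCC1 lay far below both other lines and SCC2 above LLC1, with a log2 change of 0.14 ± 0.025 in SCC2 against LLC1 (limma adjusted p = 0.000398), -0.42 ± 0.025 in SCC1 against LLC1 (adjusted p = 3.95e-08) and 0.56 ± 0.025 in SCC2 against SCC1 (adjusted p = 1.84e-09). Eif4a2 was the most lowered member in SCC1 and had the highest change of any member in SCC2 against SCC1. With chromosome medians removed Eif4a2 turned to -0.075 in SCC2 against LLC1 and Eif4a1 to 0.10 in SCC2 against SCC1, and the SCC1 call of Eif4a1 was lost (0.043, limma adjusted p = 0.0523). The share of Eif4a2 in the summed FPKM of both genes was 10.7 to 11% in SCC2 and 6.91 to 7.22% in SCC1 against 10.5 to 10.7% in LLC1 (exact permutation p = 0.1 in each comparison, two-sided).

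Eif4b, which stimulates the helicase, was low in SCC2. It had 265, 261 and 264 FPKM in SCC2, 355, 360.4 and 355 FPKM in SCC1 and 368, 366 and 364 FPKM in LLC1. SCC2 lay far below both other lines, and SCC1 just below LLC1. On the log2 scale the change was -0.47 ± 0.015 in SCC2 against LLC1 (limma adjusted p = 2.54e-10), -0.036 ± 0.015 in SCC1 against LLC1 (adjusted p = 0.0444) and -0.44 ± 0.015 in SCC2 against SCC1 (adjusted p = 1.81e-10). The SCC1 call was lost in 7 of the 9 fits that left out a library, all but those without LLC1 replicate 3 and without SCC1 replicate 2 (limma adjusted p = 0.0523 to 0.128 in those). Quantile normalization turned the SCC1 value to 0.025. The SCC1 call was also lost without trend and robust moderation (limma adjusted p = 0.167) and with the replicate number as a block (limma adjusted p = 0.0718). Removing chromosome medians turned the value of SCC2 against SCC1 to 0.0070. Eif4h, which acts like eIF4B, was higher in SCC2 by 0.12 ± 0.025 (SE, limma adjusted p = 0.00119) and not called in SCC1 (-0.013 ± 0.025, adjusted p = 0.666). Eif4g3, a second scaffold, had 19.2, 18.3 and 18.6 FPKM in SCC2, 18.4, 17.7 and 18.2 FPKM in SCC1 and 21.3, 22.3 and 21.3 FPKM in LLC1. Both subclones lay below LLC1, at -0.20 ± 0.03 (SE, limma adjusted p = 9.89e-05) in SCC2 and -0.25 ± 0.03 (SE, limma adjusted p = 1.70e-05) in SCC1. Eif4g3 made up 5.36% of the summed FPKM of Eif4g1, Eif4g2 and Eif4g3 in SCC2 and 5.55% in SCC1 against 7.01% in LLC1. With chromosome medians removed Eif4g3 turned to 0.084 in SCC1. Eif4g2, a scaffold that cannot bind eIF4E, was higher by 0.12 ± 0.019 (SE, limma adjusted p = 0.000161) in SCC2 and 0.13 ± 0.019 (SE, limma adjusted p = 0.000102) in SCC1. Of the other cap-binding proteins, Eif4e2 was higher by 0.24 ± 0.028 in SCC2 (adjusted p = 1.41e-05) and 0.084 ± 0.028 in SCC1 (adjusted p = 0.0179). Its SCC1 call was lost with chromosome medians removed (0.021, limma adjusted p = 0.524), under quantile normalization (0.051, limma adjusted p = 0.122) and without LLC1 replicate 2 or SCC1 replicate 1 or 3 (0.074 to 0.080, limma adjusted p = 0.0512 to 0.0588). Eif4e3, at 2.12 to 2.65 FPKM over all libraries, was not called. Eif4a3, a related helicase that marks exon junctions and is no part of eIF4F, was higher in SCC1 by 0.23 ± 0.022 (SE, limma adjusted p = 3.07e-06) and not called in SCC2 (0.051 ± 0.022, adjusted p = 0.0619).

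The eIF4E-binding proteins, which block cap-dependent initiation, differed among themselves. Eif4ebp1 had 311, 317 and 325 FPKM in SCC2, 247, 242 and 244 FPKM in SCC1 and 249, 244 and 236 FPKM in LLC1. SCC2 lay above both other lines, which overlapped. The log2 change was 0.38 ± 0.023 in SCC2 against LLC1 (limma adjusted p = 4.34e-08), 0.0083 ± 0.023 in SCC1 against LLC1 (adjusted p = 0.756) and 0.38 ± 0.023 in SCC2 against SCC1 (adjusted p = 2.31e-08). The ratio of Eif4ebp1 to Eif4e was 12 to 12.2 in SCC2 and 10.1 to 10.4 in SCC1 against 10.5 to 11.3 in LLC1. For the summed FPKM of Eif4ebp1, Eif4ebp2 and Eif4ebp3 over Eif4e, the ratio was 14.56 to 14.76 in SCC2 and 13 to 13.18 in SCC1 against 13.59 to 14.58 in LLC1, where SCC2 overlapped LLC1. These are messenger levels; the phosphorylation that sets the binding proteins' activity was not measured. Eif4ebp2 had 57.2, 58.3 and 59.2 FPKM in SCC2, 52.5, 55.9 and 53.9 FPKM in SCC1 and 60.4, 58.5 and 60.3 FPKM in LLC1. SCC1 lay below LLC1 and SCC2 overlapped it, at -0.14 ± 0.026 (SE, limma adjusted p = 0.000478) in SCC1 and -0.037 ± 0.026 (adjusted p = 0.228) in SCC2. Removing chromosome medians turned the SCC1 value to 0.054.

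Eif4ebp3, the least abundant of the 3, had 9.12, 9.03 and 9.46 FPKM in SCC2, 14.1, 15 and 12.7 FPKM in SCC1 and 13.3, 12.7 and 13.9 FPKM in LLC1. SCC2 lay below both other lines, which overlapped, at -0.49 ± 0.052 (SE, limma adjusted p = 6.72e-06) against LLC1, the lowest value of any member in that comparison, and likewise below SCC1 (-0.55 ± 0.052 (SE, limma adjusted p = 1.49e-06)). Removing the median of its chromosome left -0.27 against LLC1 and ended the call against SCC1 (-0.090, limma adjusted p = 0.148). A coding gene annotated on the same strand overlaps it, so its reads cannot be told apart from those of that gene. Eif4enif1, the transporter that carries eIF4E into the nucleus, had 27, 27 and 28.5 FPKM in SCC2, 35.1, 35.2 and 36.1 FPKM in SCC1 and 25.9, 25.1 and 24.9 FPKM in LLC1. SCC1 lay above both other lines, and SCC2 above LLC1, with a log2 change of 0.11 ± 0.029 in SCC2 against LLC1 (limma adjusted p = 0.00384), 0.47 ± 0.029 in SCC1 against LLC1 (adjusted p = 4.79e-08) and -0.36 ± 0.029 in SCC2 against SCC1 (adjusted p = 3.07e-07).

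**Figure D4:**
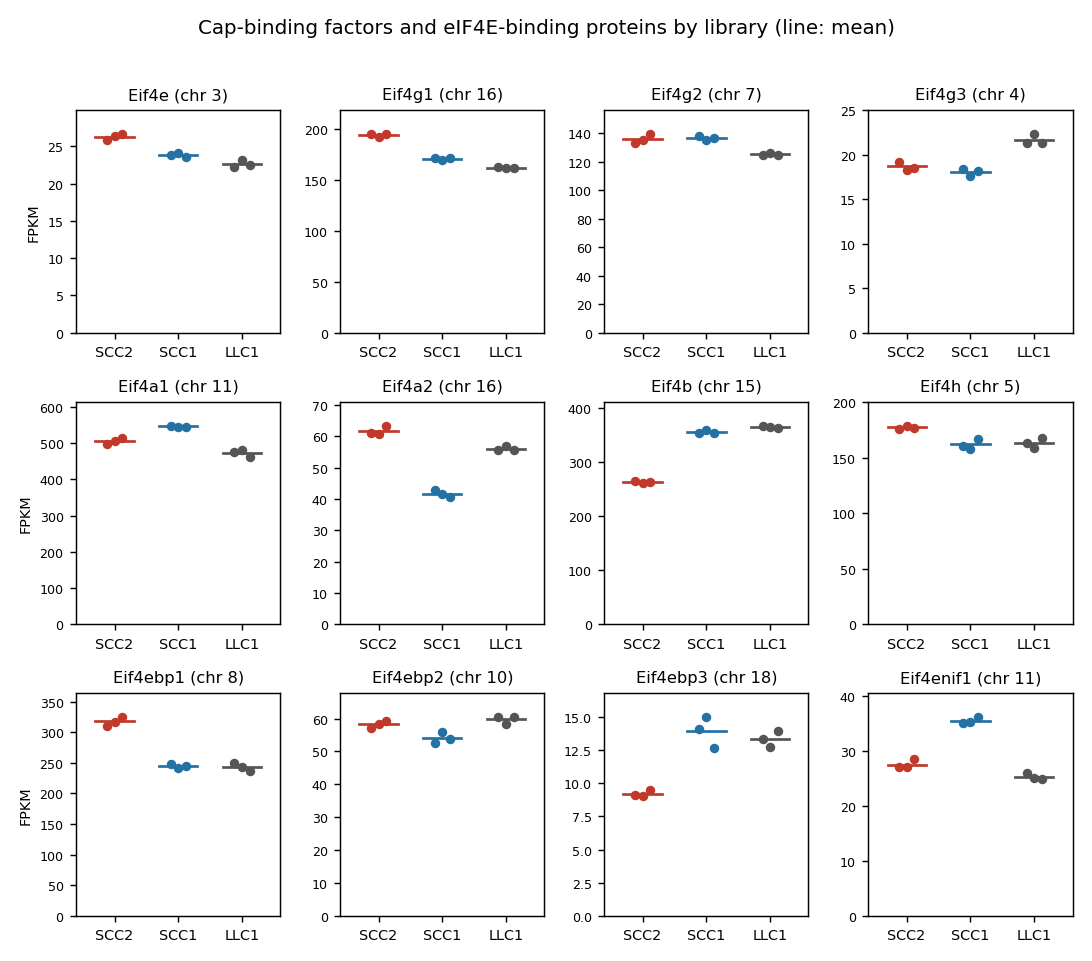
FPKM of cap-binding complex genes, their helpers and the eIF4E-binding proteins in each library of SCC2, SCC1 and LLC1 (points; the line is the mean of 3 libraries), with the chromosome of each gene. Eif4b is low in SCC2, Eif4a2 is low in SCC1, and Eif4ebp1 is at 311 to 325 FPKM in SCC2 and at 236 to 249 FPKM in both other lines.

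Eef1e1, a scaffold protein of the multi-tRNA synthetase complex that is named after an elongation factor, had the highest change of any member in SCC2 against LLC1 on the log2(FPKM + 1) scale, which shrinks the changes of low genes. By the ratio of mean FPKM it was at 1.49 and the low gene Eif5a2 at 1.67. It had 43.9, 43.2 and 45.7 FPKM in SCC2, 34.9, 35.1 and 34.3 FPKM in SCC1 and 30.4, 28.3 and 30.5 FPKM in LLC1. SCC2 was highest and LLC1 lowest, with no overlap. Its log2 change was 0.56 ± 0.032 in SCC2 against LLC1 (limma adjusted p = 3.36e-08), 0.22 ± 0.032 in SCC1 against LLC1 (adjusted p = 7.30e-05) and 0.34 ± 0.032 in SCC2 against SCC1 (adjusted p = 1.19e-06). Among the methyltransferases of the elongation factors, Eef1akmt4 had 5.78, 4.36 and 5.07 FPKM in SCC2, 3.77, 3.56 and 4.73 FPKM in SCC1 and 3.86, 3.47 and 3.15 FPKM in LLC1. SCC2 lay above LLC1 and overlapped SCC1, and SCC1 overlapped LLC1. It was higher in SCC2 by 0.43 ± 0.099 (SE, limma adjusted p = 0.00223) against LLC1 and by 0.27 ± 0.099 (SE, limma adjusted p = 0.0241) against SCC1. Without SCC1 replicate 1 or 2 or SCC2 replicate 1 or 3 the call against SCC1 was lost, at 0.19 to 0.27 and limma adjusted p of 0.0558 to 0.108, as it was without a filter on low values (adjusted p = 0.0593). With chromosome medians removed it was not called against LLC1 (0.22, limma adjusted p = 0.0792) and stood at -0.0039 against SCC1. Eef1akmt4 overlaps 2 other coding genes, 1 of them on its strand.

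Eef2kmt, which methylates eEF2, had 15.7, 15 and 15.3 FPKM in SCC2, 12, 12.5 and 13.4 FPKM in SCC1 and 13.9, 13.7 and 13.2 FPKM in LLC1. SCC2 lay above both other lines, while SCC1 overlapped LLC1. It was higher in SCC2 by 0.16 ± 0.04 (SE, limma adjusted p = 0.00376) and lower in SCC1, at -0.10 ± 0.04 (SE, limma adjusted p = 0.0404). The second call was lost without LLC1 replicate 1 or 2, SCC1 replicate 1 or 2 or SCC2 replicate 3 (-0.065 to -0.10, limma adjusted p = 0.0518 to 0.172). With chromosome medians removed it turned to -0.054 in SCC2 against LLC1. The SCC1 call was lost then (-0.017, limma adjusted p = 0.726), without a filter on low values and in the count model (adjusted p = 0.063 and 0.0621). It was also lost with the replicate number as a block (limma adjusted p = 0.0617). Eef1akmt1 was higher by 0.14 ± 0.046 (SE, limma adjusted p = 0.0167) in SCC2 and 0.22 ± 0.046 (SE, limma adjusted p = 0.00113) in SCC1. Eef1aknmt was higher in SCC1 alone against LLC1, by 0.21 ± 0.042 (SE, limma adjusted p = 0.000888), with 0.080 ± 0.042 (adjusted p = 0.112) in SCC2, and Eef1akmt2 was not called against LLC1. The SCC2 call of Eef1akmt1 was lost with chromosome medians removed (0.096, limma adjusted p = 0.0908), in the count model (limma-voom adjusted p = 0.0725) and without LLC1 replicate 3 or SCC2 replicate 3 (limma adjusted p = 0.0529 to 0.0727).

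Many members changed in the direction of the chromosome that carries them, and others did not. The other tested genes of chromosome 15 had a median log2 change of -0.26 in SCC2 and 0.16 in SCC1 against LLC1, and 80.5% of these 425 genes were lower in SCC2 and 61.4% higher in SCC1. The 6 members on chromosome 15, Eif3d, Eif3e, Eif3h, Eif3l, Eif4b and Eef1d, were all lower in SCC2, with a median of -0.32, and 5 of them, all but Eif4b, were higher in SCC1. On chromosome 4, 82.2% of 611 other genes were lower in SCC1, with a median of -0.33, and so were the 3 members there, Eif3i, Eif4g3 and Eif2b3. Chromosome 16 had a median of 0.21 over 325 other genes in SCC2, of which 68.0% were higher, and all 5 members on it were higher. Chromosome 11 had a median of 0.16 over 875 other genes in SCC1, of which 63.4% were higher, and all 5 members on it were higher. On the same chromosomes in the other subclone, 2 members were higher and 2 lower on chromosome 16 in SCC1. Of its other genes 14.2% were higher and 46.5% lower there, with a median of -0.084. Chromosome 11 had 4 of 5 members higher in SCC2, where 22.4% of its other genes were higher and the median was -0.037. On chromosome 2, with a median of -0.045 in SCC2 and 19.5% of its other genes higher, 3 of 4 members were higher. For Eef1a1, on chromosome 9, the median of the 581 other genes was -0.16 in SCC2 and -0.18 in SCC1. For Eef2, on chromosome 10, it was 0.097 in SCC2 and -0.19 in SCC1 over 519 genes. For Eef1e1, on chromosome 13, it was 0.35 in SCC2 and 0.10 in SCC1 over 404 genes.

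Over the 61 tested members, the log2 change and the median of the other genes of the chromosome had the same sign in 43 members in SCC2 and 45 in SCC1 against LLC1, with a Pearson correlation of 0.721 (Spearman 0.640) in SCC2 and 0.674 (0.603) in SCC1. This is a description over genes that share the same libraries, and members of 1 chromosome share 1 median. After each chromosome's median was taken off every gene, 26 members were higher and 18 lower in SCC2, where 58.5% of all genes were called, and 29 were higher and 13 lower in SCC1, where 60.5% were; in SCC2 against SCC1, 19 were higher and 23 lower, where 67.4% of all genes were called. Eef1a1 was then still lower, at -0.13 in SCC2 and -0.051 in SCC1 (limma adjusted p = 1.12e-06 and 0.0016). Eif1 was still higher, by 0.46 in SCC2 and 0.10 in SCC1 (adjusted p = 3.37e-09 and 0.000631). Eef2 was at -0.068 in SCC2, and Eif3d turned to 0.076 in SCC2, so that its fall there did not exceed that of its chromosome. Calls that this fit added against LLC1 include Eif1a (0.28), Eif2d (-0.17) and Eif4ebp2 (-0.13) in SCC2 and Eif3m (-0.11), Eif3a (0.12), Eif1ad (0.14) and Eif4ebp3 (-0.16) in SCC1. Which process sets the level of a chromosome's genes was not tested.

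**Figure D5:**
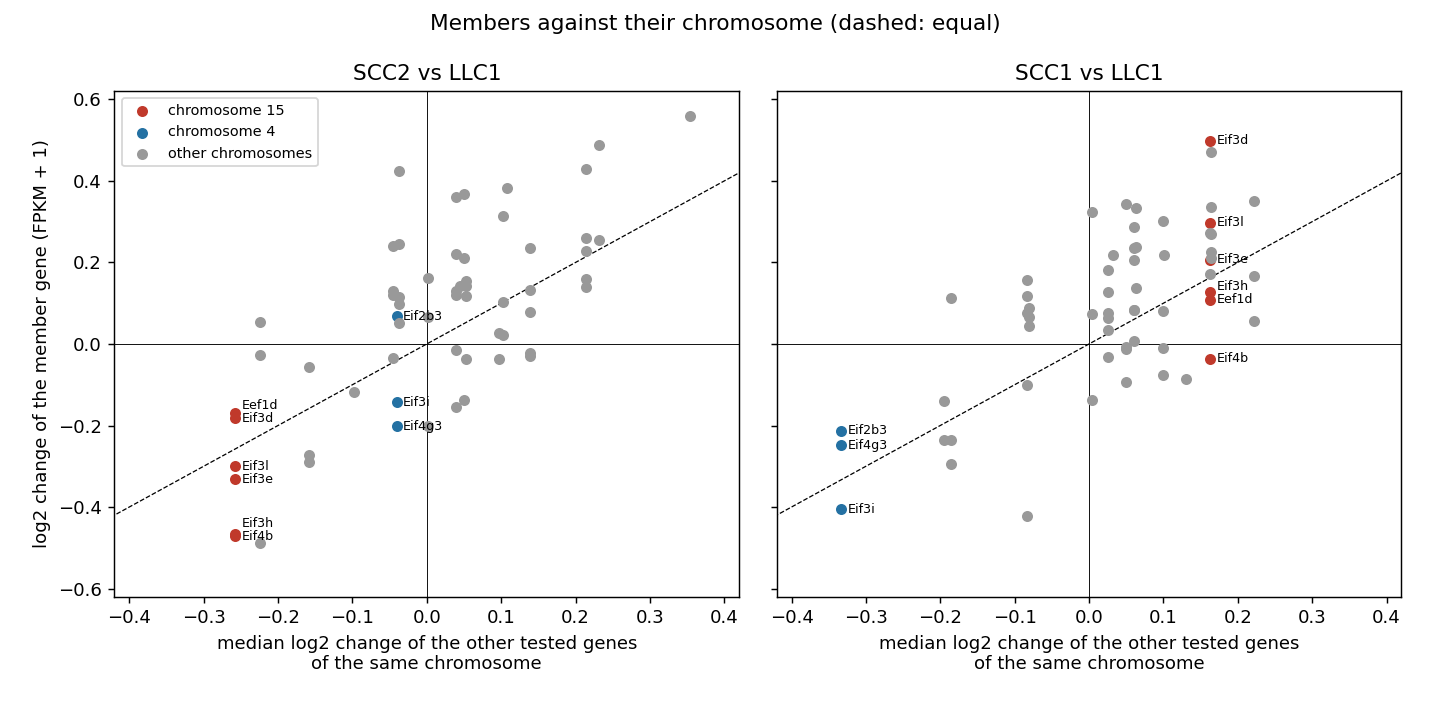
Log2 change of FPKM + 1 of each of the 61 tested members (y axis) against the median log2 change of the other tested genes of its chromosome (x axis), in SCC2 (left) and SCC1 (right) against LLC1; the dashed line marks equal values. The chromosome 15 members (red) sit at a median of -0.26 in SCC2 and 0.16 in SCC1, and the chromosome 4 members (blue) at -0.33 in SCC1.

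RefSeq start windows of 250 bases before to 50 after the start were at hand for 47 of the 62 members, with 61 windows in all. The E-box CACGTG, which reads the same on both strands, was in 16 of the 61 windows (26.2%), against 10.2% of the 10792 windows of other tested genes and 7.15% of all 32851 windows. The pyrimidine run, read on the strand of the gene, was in 34.4% of the members' windows, against 19.7% of those of other tested genes and 21.1% of all. These shares count windows and not genes, and some genes have several, such as Eif5a with 6 and Eif4enif1 with 4. The windows of other tested genes came from 8474 genes, for which no share per gene was computed. A match is a description of the letters in these windows and does not show binding; the motifs can share at most 1 base, the C that ends a run and opens an E-box. Of the 14 members with an E-box, 9 were higher and 1 lower in SCC2 against LLC1, with a median log2 change of 0.11, and of the 33 without one, 18 were higher and 8 lower, with a median of 0.12. Beside these counts, 34.7% of all genes tested were higher and 32.9% lower in SCC2. In SCC1 the medians were 0.076 with and 0.084 without an E-box. For the pyrimidine run the medians were 0.13 with and 0.11 without it in SCC2, and 0.12 with and 0.082 without it in SCC1. Eef1a1 and Eif4b, both lower, and Eif1 and Eif5a, both higher, have the run in at least 1 window.

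Genes that act on these factors also differed in both directions. Of the 6 eIF2 kinases and eIF2 phosphatase subunits, 2 were higher and 1 lower in SCC2, and 3 were higher in SCC1 and the rest not called. For this and the lists that follow, 34.7% of all genes tested were higher and 32.9% lower in SCC2, and 39.2% higher and 30.9% lower in SCC1. The median log2 change of the list was -0.031 in SCC2 and 0.095 in SCC1, beside 0.0075 and 0.033 over all genes tested. Ppp1r15a, the stress-induced phosphatase subunit, averaged 13.9 ± 0.29 FPKM in SCC2 and 12.4 ± 0.39 FPKM in SCC1 against 9.53 ± 0.33 FPKM in LLC1 (SD, n = 3 each), a log2 change of 0.50 ± 0.035 in SCC2 (limma adjusted p = 1.92e-07) and 0.35 ± 0.035 in SCC1 (adjusted p = 2.99e-06). The kinase gene Eif2ak1 was lower in SCC2, at -0.12 ± 0.03 (adjusted p = 0.00485) and higher in SCC1 by 0.28 ± 0.03 (adjusted p = 6.40e-06). Of 13 genes listed for the mTORC1 and S6 kinase arm, 5 were higher and 4 lower in SCC2, and 7 higher and 4 lower in SCC1 (median log2 change -0.041 in SCC2 and 0.083 in SCC1). The list also takes in Rps6ka3, a kinase of the RSK family that is not itself part of the mTORC1 arm. Rps6ka3 was higher in SCC2 by 0.40 ± 0.03 (adjusted p = 2.86e-07). Tsc2, a brake on mTORC1, was lower in SCC2, at -0.34 ± 0.032 (adjusted p = 1.84e-06), and averaged 27.6 FPKM in SCC1 against 24.1 FPKM in LLC1. Pdcd4, an inhibitor of eIF4A, was lower in SCC2, at -0.43 ± 0.041 (adjusted p = 2.47e-06). Larp1, which binds messengers with a pyrimidine run, was higher in SCC1 by 0.31 ± 0.02 (adjusted p = 6.86e-08). Also in SCC1, Rps6kb1 was higher by 0.21 ± 0.03 (adjusted p = 6.93e-05) and Mlst8 lower, at -0.30 ± 0.045 (adjusted p = 9.09e-05). The call of Rps6kb1 was lost with chromosome medians removed (0.041, limma adjusted p = 0.259). Of 8 eIF4E kinases and poly(A)-binding proteins, 2 were higher and 5 lower in SCC2, and 2 higher and 3 lower in SCC1 (median log2 change -0.18 in SCC2 and 0.056 in SCC1). Pabpc1, the main poly(A)-binding protein, lies on chromosome 15 and averaged 790.5 ± 4 FPKM in SCC2 and 1152 ± 3.8 FPKM in SCC1 against 956 ± 4.9 FPKM in LLC1, which was -0.27 ± 0.012 (adjusted p = 4.44e-09) and 0.27 ± 0.012 (adjusted p = 4.02e-09) on the log2 scale. The SCC2 call was lost with chromosome medians removed (-0.016, limma adjusted p = 0.278). Mknk1, an eIF4E kinase on chromosome 4, was lower in SCC1, at -0.50 ± 0.038 (adjusted p = 3.47e-07). Paip1 was higher in SCC2 by 0.54 ± 0.03 (adjusted p = 2.70e-08) and Paip2 lower there, at -0.43 ± 0.027 (adjusted p = 7.11e-08).

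Of 8 alternative initiation and recycling factors, 7 were higher and 1 lower in SCC2 (34.7% and 32.9% of all genes), with a median log2 change of 0.27, and 5 were higher and 1 lower in SCC1 (39.2% and 30.9%), with a median of 0.15. Abce1, which splits ribosomes after termination, was higher by 0.27 ± 0.021 in SCC2 (limma adjusted p = 5.40e-07) and 0.24 ± 0.021 in SCC1 (adjusted p = 1.22e-06), and the helicase gene Ddx3x by 0.26 ± 0.021 (adjusted p = 6.36e-07) and 0.18 ± 0.021 (adjusted p = 1.36e-05) in the same order. Both calls of Ddx3x were lost with chromosome medians removed (0.029, limma adjusted p = 0.26, and 0.012, limma adjusted p = 0.633). Dap, whose product can silence ribosomes, was higher in SCC2 by 0.26 ± 0.019 (adjusted p = 2.53e-07) and it lies on chromosome 15. Of the 9 diphthamide and hypusine enzymes, which modify eEF2 and eIF5A, 5 were higher in SCC2 and the rest not called, and 2 higher and 1 lower in SCC1 (median log2 change 0.14 in SCC2 and -0.022 in SCC1). Dhps, which makes hypusine on eIF5A, was higher by 0.32 ± 0.036 in SCC2 (adjusted p = 9.52e-06) and 0.10 ± 0.036 in SCC1 (adjusted p = 0.0222). The SCC1 call was lost with chromosome medians removed (0.043, limma adjusted p = 0.32), under quantile normalization, in the count model and without LLC1 replicate 1 or 2 or SCC1 replicate 1 or 3 (adjusted p = 0.0502 to 0.0746 in those). Of 4 tested genes listed with the release factors, 2 were higher and 1 lower in each subclone (median log2 change 0.17 in SCC2 and 0.11 in SCC1). The list includes N6amt1, which modifies a release factor and is not one. N6amt1 was higher in SCC2 by 0.395 ± 0.048 (adjusted p = 1.87e-05) and was the lower gene in SCC1, at -0.13 ± 0.048 (adjusted p = 0.0264). Its SCC1 call was lost with chromosome medians removed (-0.051, limma adjusted p = 0.381) and in the count model (limma-voom adjusted p = 0.137). Gspt1 was higher in SCC2 by 0.41 ± 0.024 (adjusted p = 4.97e-08). Etf1, which reads stop codons, was lower in SCC2, at -0.17 ± 0.02 (adjusted p = 1.42e-05) and higher in SCC1 by 0.25 ± 0.02 (adjusted p = 4.13e-07). With chromosome medians removed Etf1 turned to a call in the other direction in SCC2 (0.053, limma adjusted p = 0.0392) and lost its call in SCC1 (0.033, limma adjusted p = 0.177). Of 7 genes of ribosome rescue, 3 were higher and 2 lower in SCC2 and 3 higher and 3 lower in SCC1. Of 10 mitochondrial translation factors, 2 were higher and 1 lower in SCC2 and 5 higher and 2 lower in SCC1. Their medians were 0.0047 in SCC2 and 0.051 in SCC1 for rescue and 0.066 in SCC2 and 0.12 in SCC1 for the mitochondrial factors.

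Markers of other cell types were checked against the label of tumour cells of the lung. The 5 lymphocyte and 4 endothelial markers were under 1 FPKM in every library, as were 5 of 7 macrophage and leukocyte markers, with Cd68 and Cd14 above it (summed level 18.6 to 19.1 FPKM in SCC2, 26.2 to 29.9 FPKM in SCC1 and 15.6 to 17.1 FPKM in LLC1). In each list, a marker without a deposited value would be counted as under 1 FPKM. Of 5 fibroblast markers Col3a1, Dcn and Pdgfra were above 1 FPKM, and the list summed to 691 to 713 FPKM in SCC2, 258 to 268 FPKM in SCC1 and 571 to 597 FPKM in LLC1. Of 5 epithelial markers Krt8, Krt18 and Krt19 were above it while Epcam and Cdh1 were not (231.5 to 233 FPKM in SCC2, 446 to 456 FPKM in SCC1 and 333 to 342 FPKM in LLC1), and of 6 lung epithelial markers only Ager reached 1 FPKM in any library. The part of these levels in the changes of the translation factors was not tested.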

How the data were processed

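RNA from 9 libraries of 3 lines was analysed. The authors trimmed reads with Trimmomatic, aligned them with hisat2 and computed FPKM with cufflinks, per the labels' design text, on GRCm38 (mm10) per the submitters' processing notes. The sources name 2 different library kits, and a strand setting for the counting, not given in the sources used here, would be needed to tell antisense partners apart; 18 members overlap another coding gene in GENCODE M21. Deposited FPKM values fell on steps that gave whole fragments for 12270 of 12270 genes above 0 in all libraries (within 0.001 of a whole number), up to a common factor per gene.

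Log2(FPKM + 1) was fitted with limma 3.58.1 (R 4.3.3), with trend and robust moderation, over all 9 libraries and the 10519 genes with at least 1 FPKM in 3 libraries, without a replicate block. The 18 alternatives changed the pseudocount (0.1), filter (none, 5 FPKM), scaling (quantile, median-of-ratios), moderation, chromosome medians, the count model (limma-voom on recovered fragments, which called 7263, 7510 and 8160 genes where limma on log2(FPKM + 1) called 7112, 7376 and 8031 in SCC2 against LLC1, SCC1 against LLC1 and SCC2 against SCC1), the block and each library. Values per library are given for Eef1a1, Eef2, Eif4e, Eif4g1, Eif4a1, Eif2s1 and Eif4ebp1, for up to 8 called members per direction and comparison with the largest change among those whose higher line mean is at least 5 FPKM, and for members called in opposite directions in the subclones. Of the other lists, genes named are among the 3 with the smallest adjusted p per list and comparison. Members and lists were chosen with earlier results of these data known. Promoters come from RefSeq (GRCm38.p6).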

Additional observations from a re-analysis of the deposited data

How the results depend on the processing

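The counts of called members stayed within 1.5 times in all 18 alternatives. Over these and the fit as reported, 26 to 32 members were higher and 13 to 18 lower in SCC2 against LLC1, 29 to 36 higher and 8 to 13 lower in SCC1 against LLC1, and 19 to 25 higher and 23 to 25 lower in SCC2 against SCC1. When each library was left out in turn, the counts were 29 to 32 higher and 13 to 14 lower in SCC2 against LLC1, 33 to 36 higher and 8 to 13 lower in SCC1 against LLC1, and 21 to 24 higher and 23 to 25 lower in SCC2 against SCC1. The count of all genes called ran over the alternatives from 5774 to 7879, 6005 to 8157 and 6474 to 8849 in these comparisons. Each low end is of 8139 genes tested, with the filter at 5 FPKM, and each high end of 15768, without a filter. The fit as reported tested 10519, so these counts are not shares of 1 common set of genes. Of the calls of members, 29 of 45 in SCC2 against LLC1, 27 of 47 in SCC1 against LLC1 and 25 of 49 in SCC2 against SCC1 held in every alternative, and 39, 38 and 42 held when the removal of chromosome medians was set aside.

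Removing chromosome medians reversed the log2 change, called or not, in SCC2 against LLC1 for Eef1aknmt (-0.058), Eef1d (0.088), Eef1g (-0.081), Eef2 (-0.068), Eef2kmt (-0.054), Eif1b (0.10), Eif3d (0.076), Eif3j2 (0.20), Eif3m (0.0087), Eif4a2 (-0.075), Eif5b (-0.0054), Etf1 (0.053) and Gfm2 (-0.096). In SCC1 against LLC1 it did so for Eef1d (-0.055), Eif2b3 (0.12), Eif3h (-0.036), Eif3j1 (-0.019), Eif3j2 (-0.055), Eif4ebp1 (-0.052), Eif4ebp2 (0.054), Eif4ebp3 (-0.16) and Eif4g3 (0.084). In SCC2 against SCC1 it did so for Dhx29 (-0.0020), Eef1akmt4 (-0.0039), Eef1d (0.16), Eef2 (-0.016), Eef2kmt (-0.018), Eif1a (0.16), Eif2b3 (-0.013), Eif2b5 (-0.17), Eif3a (-0.10), Eif3i (-0.032), Eif3j2 (0.26), Eif3m (0.13), Eif4a1 (0.10), Eif4a3 (0.039), Eif4b (0.0070), Eif4e3 (0.20), Eif4ebp2 (-0.18), Eif4g1 (-0.095), Eif4g3 (-0.25), Eif5a (0.12), Etf1 (0.032) and Gtpbp1 (0.067). These follow from its construction, which subtracts the chromosome's median from each gene. Quantile normalization reversed Eif3j2 (0.26) in SCC2 against LLC1, Eif4b (0.025) in SCC1 against LLC1 and Eef1g (0.047), Eif2a (0.014), Eif4e3 (0.011) and Eif4g2 (0.0023) in SCC2 against SCC1, and median-of-ratios scaling Eif4ebp1 (-0.0090) in SCC1 against LLC1 and Eif2a (0.015) and Eif4g2 (0.0094) in SCC2 against SCC1. Leaving out 1 library turned the sign of uncalled values, with these ranges over the libraries left out: Eif1b (-0.12 to 0.0024), Eif2b4 (-0.075 to 0.0024), Eif3f (-0.028 to 0.0018) and Eif3j2 (-0.22 to 0.13) in SCC2 against LLC1, Eef1akmt2 (-0.087 to 0.0040), Eif2b1 (-0.036 to 0.028), Eif3j2 (-0.18 to 0.38), Eif3m (-0.020 to 0.0048), Eif4ebp1 (-0.012 to 0.027) and Eif4h (-0.035 to 0.0081) in SCC1 against LLC1, and Eif2a (-0.021 to 0.025), Eif3j2 (-0.41 to 0.15), Eif4e3 (-0.069 to 0.0045) and Eif4g2 (-0.024 to 0.0082) in SCC2 against SCC1. Their cause was not tested.

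Same-numbered libraries did not deviate together (correlations of -0.068 to 0.089), so the numbers were not taken as pairs. With the replicate number as a block, 31 members were higher and 14 lower in SCC2 against LLC1, 35 higher and 10 lower in SCC1 against LLC1, and 23 higher and 25 lower in SCC2 against SCC1. With 3 libraries per line and 1 clone per subclone line, a difference between lines cannot be told apart from one between single clones, and members near 1 FPKM (Eif5a2, Eif3j2) are limited by depth.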
